A study of Mus musculus with 8 samples.

Results

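The imprinted protein-coding genes Peg3, Peg12, Ndn, Magel2, Snrpn, Nnat, Grb10 and Plagl1 were followed across the 4 groups of arrays of a study of ribosomes from mouse medial prefrontal cortex (mPFC). The array annotation names 22180 genes on at least 1 probe set of a single symbol, and 7 of these 8 genes are among them. The set was put together because Peg12 was high in one group of pull-downs relative to its input, and Peg12 was thus chosen by its log2 values in the VTA pull-downs and VTA inputs. That contrast is a description for Peg12 and carries no test. The 7 genes lie on 9 such probe sets. Snrpn lay only on 2 probe sets annotated to several symbols and has no value here. Where a gene had more than 1 such probe set, the brighter one on average stands for it. Of the 7 measured genes, 6 passed the filter, which kept a gene whose level exceeded the array's median of all named genes on at least 2 arrays. Magel2 did not pass it.

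Mice with a Cre-dependent, GFP-tagged ribosome received CAV2-Cre, a canine adenovirus that is taken up by axon terminals and carries Cre, in the nucleus accumbens (NAC) or the ventral tegmental area (VTA). The mPFC was then dissected, so that tagged ribosomes come from mPFC cells that the virus reached from one target. RNA was hybridised from the GFP-trap pull-down or from the material before it (input), with 2 arrays in each of the 4 groups: NAC pull-down, NAC input, VTA pull-down and VTA input. All animals carried the ribosome tag and all received the virus, and no uninjected or untagged group was analysed here. Strain, age, sex and any pooling of animals are not given in the labels used here. The labels do not say whether arrays of one group come from separate animals, so p-values measure the spread between these arrays, which may be technical. The text attached to the input samples speaks of translating mRNA as it does for the pull-downs, whereas their precipitation reagent is given as none. They are treated here as unpurified mPFC RNA.

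Imprinted genes are transcribed mainly from the copy inherited from one parent, under DNA methylation laid down in the egg or sperm. Many of them are strongly expressed in brain, where they act on growth, feeding, maternal behaviour and neuronal development. An expression array does not separate the parental copies, so every value below is the sum over both. Peg12, Ndn, Magel2 and Snrpn belong to a single imprinted domain on mouse chromosome 7, the counterpart of the human Prader-Willi region. These named genes are expressed from the paternal copy. In the RefSeq order of protein-coding genes, Snrpn, Snurf, Gm51483, Ndn, Magel2, Mkrn3 and Peg12 follow each other there. Peg3 is also on chromosome 7, Nnat on chromosome 2, Plagl1 on chromosome 10 and Grb10 on chromosome 11.

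The start-site windows of Peg12 and Ndn are shown because they are the genes of that domain that passed the filter. Each window is 300 bases long and ends shortly after the annotated start, 5′ to 3′ on the gene's strand, in RefSeq GRCm38.p6. Capitals mark CG dinucleotides, the sites at which imprinting methylation is placed. Peg12 lies on the minus strand with its window at chr7:62464461-62464760, and Ndn on the plus strand with its window at chr7:62348027-62348326.
Peg12: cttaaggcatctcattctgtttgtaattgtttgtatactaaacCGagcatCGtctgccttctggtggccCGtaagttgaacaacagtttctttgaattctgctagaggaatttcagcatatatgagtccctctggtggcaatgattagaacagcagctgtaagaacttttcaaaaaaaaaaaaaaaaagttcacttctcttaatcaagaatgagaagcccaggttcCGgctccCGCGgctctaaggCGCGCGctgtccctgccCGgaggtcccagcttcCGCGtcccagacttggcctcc
Ndn: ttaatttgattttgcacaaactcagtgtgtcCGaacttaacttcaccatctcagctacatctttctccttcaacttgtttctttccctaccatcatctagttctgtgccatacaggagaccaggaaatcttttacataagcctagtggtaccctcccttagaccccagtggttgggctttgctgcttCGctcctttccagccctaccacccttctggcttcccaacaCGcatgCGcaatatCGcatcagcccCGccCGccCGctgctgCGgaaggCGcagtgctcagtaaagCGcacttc
The Peg12 window held 12 CG and the Ndn window 11, with 9 of them in the last 100 bases in each case. Among the 32851 windows of this length in the table the median was 7 CG, and 39.6% held at least as many as Peg12 and 41.4% at least as many as Ndn. Methylation was not measured in this study, so the windows show where the genes start and nothing about their state in these cells.

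All values are log2 expression values. The median of the named genes lay between 5.86 and 5.98 on the 8 arrays. Rpl10a, which encodes a protein of the large ribosomal subunit, was higher in the pull-downs than in the inputs of both targets, by 1.15 (SE 0.14; limma, adjusted p = 0.00235) for NAC and by 1.83 (SE 0.14; limma, adjusted p = 0.000258) for VTA. Markers of glutamatergic projection neurons, 7 tested genes, had an array mean of 10.07 to 10.16 in the NAC pull-downs, 10.10 to 10.11 in the NAC inputs, 9.997 to 10.03 in the VTA pull-downs and 10.12 to 10.14 in the VTA inputs. Of these 7, 1 was higher and 0 lower in the NAC pull-down than in its input, and 0 were higher and 2 lower for VTA. Of 10 GABAergic interneuron markers tested, 5 were lower for NAC and 4 for VTA. Of 7 oligodendrocyte markers tested, 6 were lower in the pull-down of each target, and of 8 microglia markers 7 were lower for NAC and 5 for VTA. Among all genes tested, 8.01% were called lower for NAC and 25.9% for VTA, and 4.34% and 5.44% higher. Of the 11712 genes tested, 12.3% passed an adjusted p of 0.05 between NAC pull-down and NAC input, 31.3% between VTA pull-down and VTA input, 2.47% between the pull-downs of VTA and NAC, and 1.5% between their inputs. The difference of enrichment (VTA pull-down minus input, less the same for NAC) was called for 0.0683% of genes. The calls leaned to lower values in the pull-downs: 35.1% of the NAC calls and 17.4% of the VTA calls were higher there, against 47.0% and 33.3% once each array was centred on its median. Between the pull-downs, 17.0% of the calls were higher in VTA, or 29.7% after centring. For the difference of enrichment that share was 12.5%, or 25% after centring and 0 with quantile normalization. Leaving out single arrays changed these totals strongly. The NAC count of 1446 genes fell to 149 without NAC input 1, 157 without NAC input 2 and 177 without NAC pull-down 2, and was 863 without either VTA input. The VTA count of 3671 genes fell to 415 without VTA input 1, 1941 without VTA input 2 and 1795 without VTA pull-down 1. In bulk samples such as these, fewer cells of a type and less RNA per cell cannot be told apart.

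None of the imprinted genes passed the limma test in any of the 5 comparisons. Between NAC pull-down and NAC input that was 0 of the 6 genes tested, and elsewhere 0 of the other 5, leaving out Peg12. Of all genes, 12.3% passed for NAC pull-down against input and 31.3% for VTA. That share was 2.47% between the pull-downs, 1.5% between the inputs and 0.0683% for the difference of enrichment. At an unadjusted p under 0.05 there was 1 imprinted gene in each of the 4 group comparisons and 0 for the difference of enrichment. The shares of all genes at that level were 30.5% for NAC pull-down against input, 44.2% for VTA pull-down against input, 16.2% between the pull-downs, 10.9% between the inputs and 12% for the difference of enrichment. The genes differed widely in level. Peg3 was highest over array medians, at 4.37 to 4.64, followed by Ndn at 2.63 to 3.27 and Nnat at 2.36 to 2.91. Grb10 lay 1.41 to 1.83 above, Plagl1 1.23 to 1.41 above, Peg12 between -0.15 and 1.24, and Magel2 between -0.93 and -0.39. These distances depend on each probe set and do not rank the genes by transcript number.

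**Figure D1:**
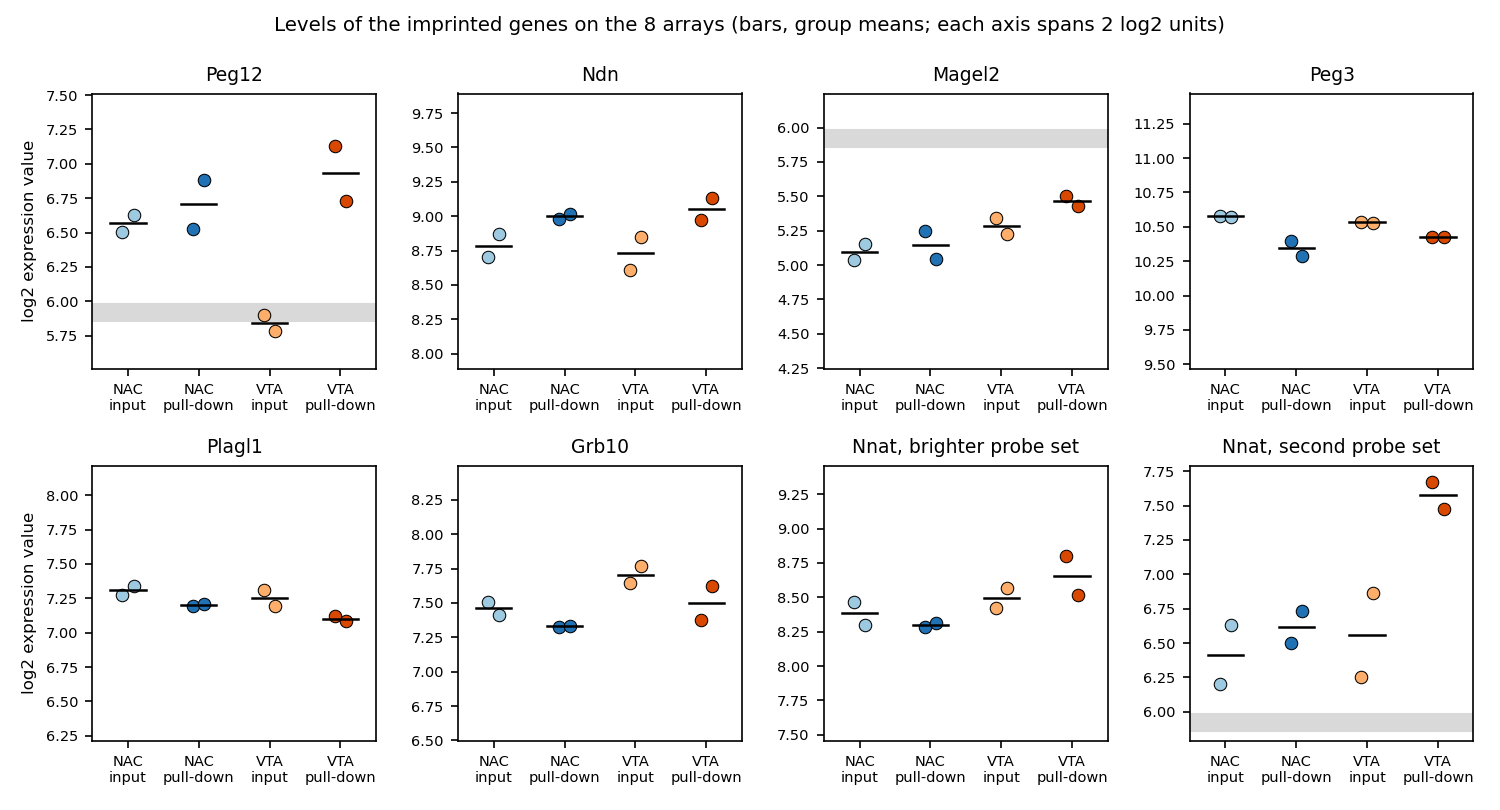
Log2 expression value (y axis, 2 log2 units in each panel) of 7 imprinted genes in the 4 groups (x axis), with 1 point per array and a bar at the group mean; Nnat has a panel for each probe set, and the grey band is the range of array medians of the named genes. The VTA inputs of Peg12 lie within and just under the band, at 5.90 and 5.78, and all 8 Magel2 points lie under it.

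Peg12, also called Frat3, encodes a relative of the FRAT proteins, which bind the kinase GSK3 and act in Wnt signalling. Its level was 7.13 and 6.73 in the VTA pull-downs, 6.53 and 6.88 in the NAC pull-downs, 6.51 and 6.63 in the NAC inputs, and 5.90 and 5.78 in the VTA inputs. Only the VTA inputs stood apart from every other group: the VTA and NAC pull-downs overlapped, and so did the NAC pull-downs and NAC inputs. The VTA pull-downs also lay above the NAC inputs. The group means were 6.93 ± 0.28 for VTA pull-down, 6.71 ± 0.25 for NAC pull-down, 6.57 ± 0.09 for NAC input and 5.84 ± 0.08 for VTA input (SD, n = 2 each).

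The mean of the VTA pull-downs exceeded that of the VTA inputs by 1.09 (SE 0.15), which is the difference the gene was picked for. Since Peg12 lay 0.08 and 0.15 under the array median in the VTA inputs, the size of this difference is not exact. It was 0.89 without VTA pull-down 1 and 1.29 without VTA pull-down 2, and 1.17 with arrays centred on their medians. Between NAC pull-down and NAC input, the contrast that did not enter the choice, the difference was 0.14 (SE 0.15, 95% interval -0.20 to 0.48; limma, adjusted p = 0.57). This is within the spread of the arrays, and its sign turned to -0.04 without NAC pull-down 2.

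Set side by side, the VTA and NAC arrays differed more in the inputs than in the pull-downs. The VTA pull-downs averaged 0.22 above the NAC pull-downs, a value that was 0.02 without VTA pull-down 1, 0.05 without NAC pull-down 1, 0.40 without NAC pull-down 2 and 0.43 without VTA pull-down 2. The VTA inputs averaged 0.73 below the NAC inputs, at -0.73 on the deposited scale and -0.74 after centring. The difference of enrichment was 0.95 (SE 0.22). All of these share arrays with the contrast behind the choice of Peg12 and are given with no test. On the 6 arrays other than the VTA inputs, Peg12 lay 0.54 to 1.24 above the array median.

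Other features of the VTA inputs moved as well. Rpl10a was 9.87 and 10.35 there against 10.92 and 10.94 in the NAC inputs, a fall of 0.82, at -0.82 (SE 0.14; limma, adjusted p = 0.0133). Of 8 microglia markers, 3 were lower and 1 higher in the VTA inputs, where 162 of 11712 genes were lower and 14 higher. The array mean over the microglia list was 7.95 to 7.98 there against 8.29 to 8.32 in the NAC inputs. The part of Rpl10a and of microglia in the Peg12 values was not tested. Layer 5 pyramidal tract markers, of cells whose axons run to the midbrain, were higher for 6 of 9 in the VTA than in the NAC pull-downs. Among all 11712 genes tested, 49 were called higher there. The marker Pcp4 went the other way without being called, with a mean of 12.30 in the VTA and 12.66 in the NAC pull-downs. The array mean of the 9 markers was 9.22 to 9.32 in the VTA pull-downs and 8.61 to 8.70 in the NAC pull-downs. In the inputs it was 8.83 to 8.84 for VTA and 8.71 to 8.74 for NAC. Between the inputs 0 of the 9 were called by limma, against 1.5% of all genes, with 1 at an unadjusted p under 0.05, against 10.9%. The part of the layer 5 cells in the Peg12 level was not tested.

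The range of Peg12 over the 8 arrays was 1.35, from a VTA input to a VTA pull-down, so its size follows from the contrast the gene was picked for. The pooled SD within groups, which does not use that contrast, was 0.20 for Peg12, above that of 90.1% of the genes tested (median 0.11). The 5 genes whose log2 values followed it most closely over the 8 arrays were Relb, Col5a3, Fbxl22, Ccn5 and Psmb3, with Pearson r from 0.970 to 0.986. All 5 were dim, lying between -0.38 and 0.93 relative to the array medians. They were lowest in the VTA inputs, but the likeness used the arrays by which Peg12 was chosen. That shared pattern therefore follows from the choice. The correlations describe 8 points in 4 groups on shared arrays, and with 11712 genes to choose from some r will be high.

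**Figure D2:**
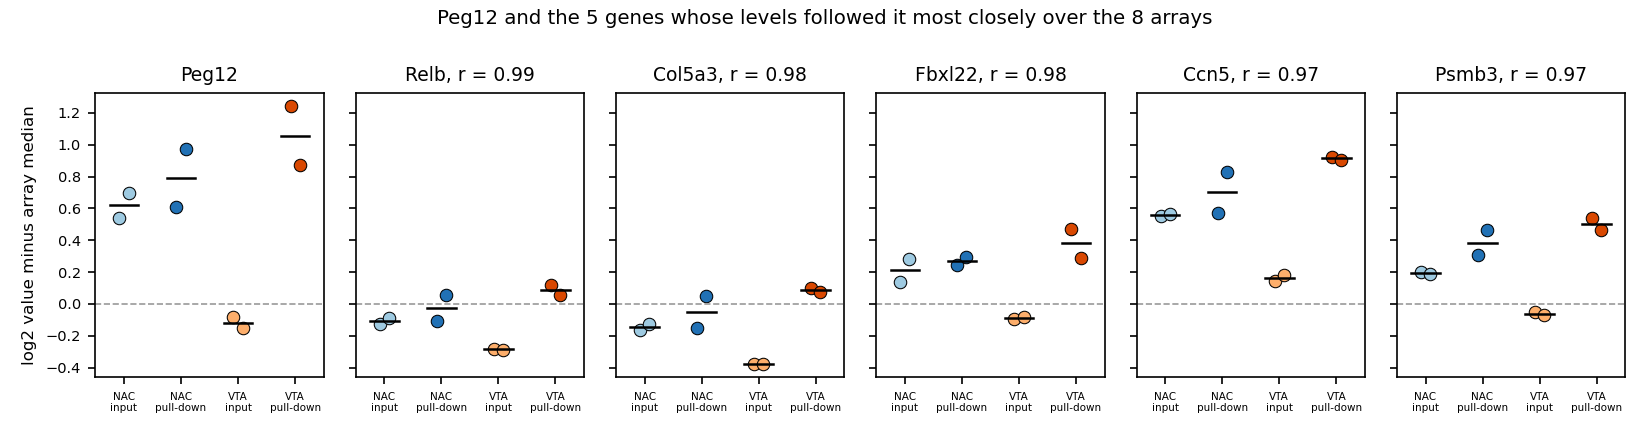
Log2 value minus the array median of named genes (y axis) for Peg12 and the 5 genes with the highest Pearson r to it, by group (x axis), with 1 point per array and a bar at the group mean; the dashed line is the array median. In each panel the VTA inputs are the lowest group, and for Peg12 they lie 0.08 and 0.15 under the line. For the 5 other genes this low group follows from their choice by likeness to Peg12.

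Ndn encodes necdin, a MAGE-family protein of postmitotic neurons that restrains cell-cycle factors and supports neuronal differentiation. Its level was 8.98 and 9.02 in the NAC pull-downs against 8.70 and 8.87 in the NAC inputs. In the VTA pull-downs it was 8.97 and 9.13 against 8.61 and 8.85 in the VTA inputs. Every pull-down array lay above every input array of either target. The difference was 0.21 for NAC (SE 0.11, 95% interval -0.04 to 0.47; limma, adjusted p = 0.23) and 0.32 for VTA (SE 0.11, 95% interval 0.07 to 0.58; limma, adjusted p = 0.0562).

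The VTA value missed the threshold on the deposited scale and met it in 5 of 16 alternatives. On leaving out single arrays the difference ran from 0.20 to 0.44. It was 0.41 with centred arrays (limma, adjusted p = 0.0402) and 0.42 with quantile normalization (limma, adjusted p = 0.0274). Of all 11712 genes, 2585 passed with centred arrays and 2799 with quantile normalization. The same difference with a variance trend gave limma's adjusted p = 0.0246, and over all alternatives the adjusted p ran from 0.0246 to 0.332. Between targets Ndn differed by 0.05 in the pull-downs (SE 0.11; limma, adjusted p = 0.87) and -0.05 in the inputs (SE 0.11; limma, adjusted p = 0.89). The sign of the first turned without VTA pull-down 2, and that of the second without NAC input 2 or VTA input 1. The order of the groups was that of Peg12, with neighbours in that order overlapping except at the step from NAC pull-down to NAC input. Fastk and Yrdc followed it most closely, with r of 0.980 and 0.975 over the 8 arrays.

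Magel2 encodes another MAGE-family protein, which works with a ubiquitin ligase in endosomal recycling and is the gene mutated in Schaaf-Yang syndrome. It measured 5.25 and 5.04 in the NAC pull-downs, 5.04 and 5.15 in the NAC inputs, 5.50 and 5.43 in the VTA pull-downs, and 5.34 and 5.23 in the VTA inputs. All 8 values were below the array medians, so it was left out of the main test, and Peg12 was the lowest of the genes kept, above the median on 6 of the 8 arrays. When every gene was tested whatever its level, the VTA pull-down minus input difference of Magel2 was 0.18 (limma, adjusted p = 0.33) and that between the pull-downs 0.32 (limma, adjusted p = 0.35).

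Peg3 and Plagl1 encode zinc-finger proteins. Peg3 acts in growth and maternal behaviour, and Plagl1, also called Zac1, is a transcription factor that halts cell division and regulates other imprinted genes. Peg3 was 10.40 and 10.29 in the NAC pull-downs against 10.58 and 10.57 in the NAC inputs, and 10.43 and 10.42 in the VTA pull-downs against 10.54 and 10.53 in the VTA inputs. Every pull-down array was below every input array. The difference was -0.23 for NAC (SE 0.09, 95% interval -0.43 to -0.03; limma, adjusted p = 0.11), which passed the threshold only with a variance trend (limma, adjusted p = 0.025; range over all alternatives 0.025 to 0.45). With that trend 2028 of all 11712 genes passed for NAC. For VTA the Peg3 difference was -0.11 (SE 0.09, limma adjusted p = 0.38).

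Plagl1 was 7.20 and 7.21 in the NAC pull-downs, 7.27 and 7.34 in the NAC inputs, 7.12 and 7.08 in the VTA pull-downs, and 7.31 and 7.19 in the VTA inputs. Its pull-downs too lay below their own inputs, by -0.11 for NAC (SE 0.09; limma, adjusted p = 0.46) and -0.15 for VTA (SE 0.09; limma, adjusted p = 0.23). A second Plagl1 probe set read 1.99 to 3.04, far under the array medians, and averaging it in turned the NAC difference to 0.26. Peg3 and Plagl1 were the steadiest of the genes, with ranges over the 8 arrays of 0.29 and 0.26, larger than those of 15.5% and 10.3% of the genes tested. Med13 and Asah2 followed Peg3 most closely (r = 0.985 and 0.984 over the 8 arrays), and Ptafr and Slc39a13 followed Plagl1 (r = 0.969 and 0.963).

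Grb10 encodes an adaptor that binds the insulin and IGF1 receptors and dampens their signalling. It is unusual in being expressed from the maternal copy in most tissues and from the paternal copy in neurons. It measured 7.33 and 7.33 in the NAC pull-downs, 7.51 and 7.41 in the NAC inputs, 7.38 and 7.62 in the VTA pull-downs, and 7.65 and 7.77 in the VTA inputs. Both VTA inputs were above all other arrays, and both NAC pull-downs below. The pull-down minus input difference was -0.13 for NAC (SE 0.11; limma, adjusted p = 0.43) and -0.21 for VTA (SE 0.11; limma, adjusted p = 0.16). The VTA inputs exceeded the NAC inputs by 0.25 (SE 0.11, 95% interval 0.01 to 0.48; limma, adjusted p = 0.45), and the pull-downs differed by 0.17 (SE 0.11; limma, adjusted p = 0.48). Cep250 and Plxnc1 followed Grb10 most closely, with r of 0.985 and 0.973 over the 8 arrays.

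Nnat encodes neuronatin, a small membrane proteolipid of the endoplasmic reticulum that takes part in calcium handling. Its brighter probe set read 8.80 and 8.52 in the VTA pull-downs against 8.28 and 8.31 in the NAC pull-downs, with 8.42 and 8.57 in the VTA inputs and 8.47 and 8.30 in the NAC inputs. The pull-downs of the targets did not overlap, and differed by 0.36 (SE 0.12, 95% interval 0.10 to 0.62; limma, adjusted p = 0.16). The difference from the input was 0.16 for VTA (SE 0.12; limma, adjusted p = 0.31) and -0.09 for NAC (SE 0.12; limma, adjusted p = 0.65). Ehmt2 and Ccdc177 followed it most closely (r = 0.954 and 0.925 over the 8 arrays).

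The second Nnat probe set gave larger differences of the same sign for VTA. It read 7.67 and 7.48 in the VTA pull-downs, 6.50 and 6.73 in the NAC pull-downs, 6.25 and 6.87 in the VTA inputs, and 6.20 and 6.63 in the NAC inputs, so that the VTA pull-downs lay above the other 6 arrays. With each of 12246 probe sets tested on its own, a setting chosen after the data were seen, it was higher in the VTA pull-down than in its input by 1.01 (SE 0.20; limma, adjusted p = 0.00846), where 30.6% of probe sets passed. It was higher than in the NAC pull-down by 0.96 (SE 0.20; limma, adjusted p = 0.0455), where 2.26% passed.

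Both Nnat calls were lost on leaving out single arrays, while the differences kept their sign. The first was lost without VTA input 1, at 0.71 (limma, adjusted p = 0.0731). The second was lost without any one of the pull-downs or NAC inputs, with limma's adjusted p of 0.191 and 0.0883 for NAC pull-downs 1 and 2, 0.156 and 0.0777 for VTA pull-downs 1 and 2, and 0.0578 for either NAC input. The differences were then 0.84, 1.07, 0.86 and 1.05 without the 4 pull-downs in that order and 0.96 without either NAC input, against 0.96 with all arrays. With quantile normalization it was 0.0516 by limma. For NAC pull-down against NAC input the second probe set differed by 0.20 (SE 0.20; limma, adjusted p = 0.53). Which parts of the transcript the probe sets cover is not in the annotation used here, so their disagreement was not traced.

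**Figure D3:**
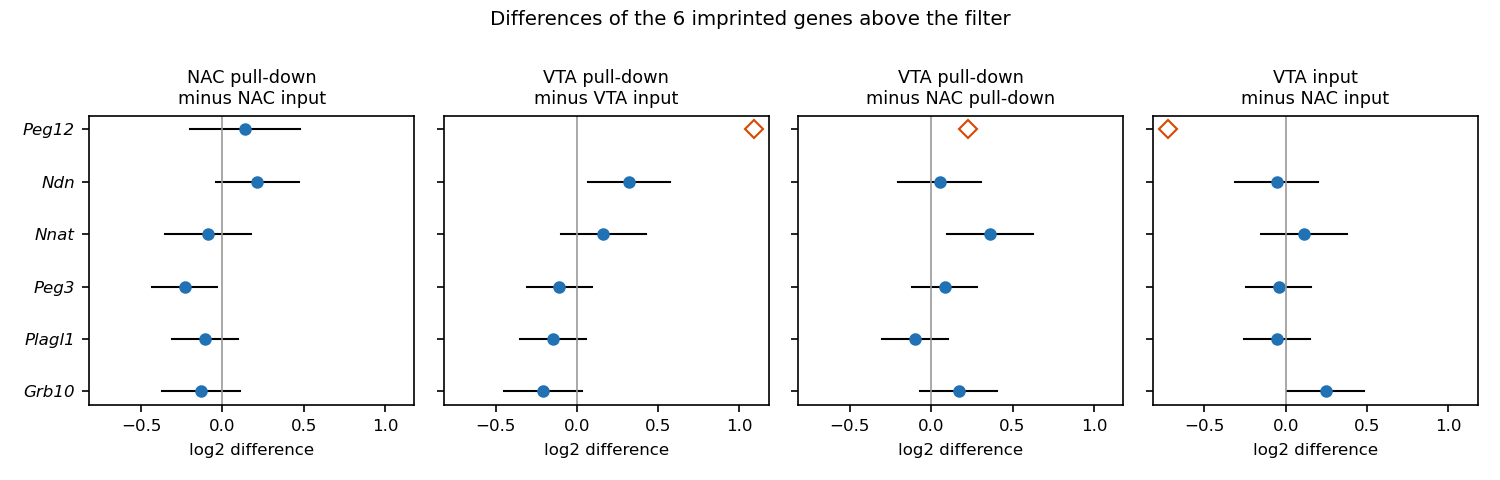
Log2 differences (x axis) of the 6 imprinted genes above the filter (y axis) in the 4 group comparisons; circles with lines are limma estimates with 95% intervals not adjusted over genes, and open diamonds are Peg12 in the comparisons that share arrays with its choice, shown with no interval. Peg12 stands at 1.09 for VTA pull-down minus input and at -0.73 for VTA minus NAC input, and the other genes lie between -0.23 and 0.36.

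The pull-down and input arrays did not overlap for 4 of the 5 genes other than Peg12 in either target, the same 4 each time: Ndn above its inputs, and Peg3, Plagl1 and Grb10 below. Among all genes tested 62.3% did not overlap for NAC and 69.1% for VTA, so the count is near the background. The pull-downs of the targets did not overlap for Grb10, Nnat, Peg3 and Plagl1, 4 of 5 against 44.2% of all genes, and the inputs for Grb10 and Peg3, 2 of 5 against 46.6%. For the difference of enrichment the 5 genes lay between -0.08 and 0.25, with limma's adjusted p between 0.57 and 0.91.

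Other imprinted genes, named from the imprinting literature, were lower in the pull-downs wherever they were called. Of 20 genes listed as expressed from the paternal copy, 13 were tested, and of 26 from the maternal copy, 12. Whether a listed gene is imprinted in cells of the mPFC was not measured here. In the NAC pull-down 1 of the 13 paternal genes was lower, Gab1, an adaptor of growth factor receptors, at -0.60 (SE 0.11). Of the 12 maternal genes 4 were lower there, led by Dcn at -0.61, Ppp1r9a at -0.36 and Kcnk9 at -0.34. None was higher, and 8.01% of all genes were called lower in that comparison. Dcn encodes a matrix proteoglycan of fibroblasts and vessel walls, Ppp1r9a an actin-binding synaptic protein and Kcnk9 a potassium leak channel.

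In the VTA pull-down 5 of the 13 paternal genes were lower than in the input, led by Usp29 at -0.65, Sgce at -0.58 and Inpp5f at -0.58. Usp29, a deubiquitinase gene beside Peg3, had a limma adjusted p of 0.00457. Of the 12 maternal genes 5 were lower, led by Copg2 at -0.60, Zim1 at -0.56 and Dcn at -0.44, and none of either list was higher. The background of genes called lower was 25.9%. The genes called in both targets were Gab1, Dcn, Ppp1r9a and Cd81, the last named after its values were seen. They are 4 of the 5 called for NAC and 4 of the 10 called for VTA.

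Across both lists 22 of 25 differences were negative for NAC, from -0.61 (Dcn) to 0.16 (Mcts2), and 21 of 25 for VTA, from -0.65 (Usp29) to 0.22 (Peg10). Among all genes 60.2% and 70.9% were negative. The medians were -0.17 for the paternal and -0.24 for the maternal list in NAC, and -0.21 and -0.24 in VTA, against -0.06 and -0.15 over all genes. Dcn is also one of the endothelial and mural markers, of which 4 of 8 were lower in the NAC pull-down and 5 of 8 in the VTA pull-down. Among all genes 8.01% and 25.9% were called lower. The mean of the endothelial and mural list was 6.85 to 6.87 against 7.24 to 7.29 in the NAC arrays. In the VTA arrays it was 6.90 to 7.02 against 7.30 to 7.37. The part of these cells in the lower values was not tested.

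The imprinted calls rested on few arrays. Of the 5 NAC calls, 0 held without NAC pull-down 2, NAC input 1 or NAC input 2, and 2 held without NAC pull-down 1 or without either VTA input. Of the 10 VTA calls, 0 held without VTA input 1, 6 without VTA input 2, 6 without VTA pull-down 1 and 8 without VTA pull-down 2. With centred arrays 2 of the 5 and 7 of the 10 held, and none of the genes called changed sign. In the 3 comparisons between targets, 0 of the 25 genes passed the limma test. Of all genes, 2.47% passed between the pull-downs, 1.5% between the inputs and 0.0683% for the difference of enrichment. At an unadjusted p under 0.05 there were 4 paternal and 2 maternal genes between the pull-downs, 1 and 0 between the inputs, and 1 and 0 for the difference of enrichment. The shares of all genes at that level were 16.2%, 10.9% and 12%.

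**Figure D4:**
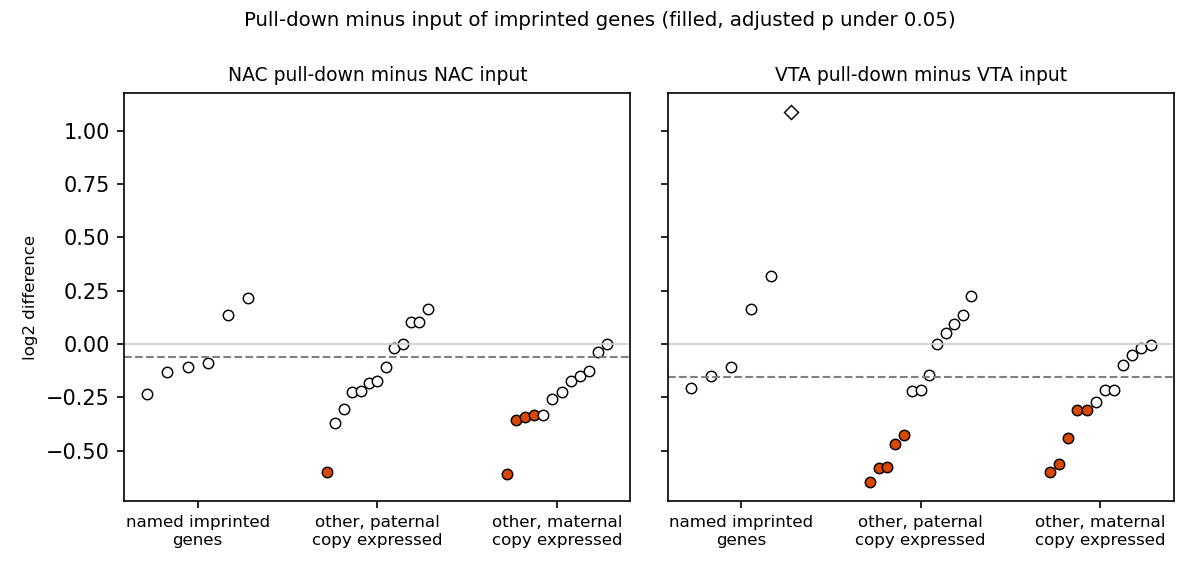
Log2 difference of pull-down minus input (y axis) for NAC (left) and VTA (right), with 1 point per gene for the 6 imprinted genes above the filter, the 13 other paternal and the 12 other maternal genes (x axis); filled points passed an adjusted p of 0.05, the diamond is Peg12 in VTA, shown with no test, and the dashed line is the median of all genes. All filled points lie below 0, at -0.31 or lower, and Peg12 stands alone at 1.09.

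Genes in or beside the Peg12 to Snrpn domain were followed as a list of 12, of which 8 were tested. Ube3a and Atp10a are shared with the maternal list and Mkrn3 with the paternal list. Mkrn3, between Magel2 and Peg12 in gene order, was below the filter. A26c2, Chrna7 and Otud7a, which follow Peg12 in that order, were not on the list. For NAC 1 of 8 was lower in the pull-down, Herc2 at -0.38, and for VTA 3 of 8, Tubgcp5 at -0.56, Gabrg3 at -0.40 and Nipa1 at -0.37. Among all genes 8.01% were called lower for NAC and 25.9% for VTA. None of the 8 was higher, against 4.34% and 5.44% of all genes. The 1 NAC call was lost on leaving out any of the 4 NAC arrays or either VTA input, and after centring. None of the VTA calls held without VTA input 1, and only 1 of 3 held without VTA pull-down 1 (Tubgcp5) or VTA input 2 (Gabrg3), and 1 after centring (Tubgcp5).

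Among 9 tested relatives of the imprinted genes that are not themselves imprinted, 0 were called by limma for NAC, against 12.3% of all genes. At an unadjusted p under 0.05 there were 2, against 30.5% of all genes. For VTA 2 were lower in the pull-down, Plag1 at -0.63 and Magee2 at -0.39, and neither held without VTA input 1. With 25.9% of all genes called lower there, 2 of 9 is near the background. Plag1 alone held without VTA pull-down 2, without either NAC input and after centring. Frat1, the nearest tested relative of Peg12, differed by 0.06 between NAC pull-down and input and by -0.02 between VTA pull-down and input, and Frat2 was below the filter. Maged1, of the family of Ndn, differed by 0.01 and -0.04.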

How the data were processed

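Per the labels' protocols, biotinylated cRNA was hybridised to Affymetrix arrays. The values are log2 expression values as the authors deposited them, made with Transcriptome Analysis Console per the submitters' processing notes; its version, summarisation and normalization are not stated there. Of 41345 probe sets, 23521 carried 1 gene symbol, 1814 several and 16010 none; 23328 of the first were found in the RefSeq table (GRCm38.p6). Only probe sets with 1 symbol were used, and per gene the one with the highest mean. Genes above the array's median of named genes on at least 2 of 8 arrays were kept (11712). Differences were tested with limma 3.58.1 in R 4.3.3 (lmFit, eBayes; 1 mean per group over all 8 arrays; 4 residual and 6.07 prior degrees of freedom), two-sided, with Benjamini-Hochberg adjustment over all genes and a threshold of 0.05. The procedure was tested on simulated data. With 2 arrays per group, their number limits the precision. Alternatives were centring, quantile normalization, no filter, the mean of probe sets, a variance trend, only the groups compared, replicate blocks and leaving out each array.

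The imprinted genes and all lists were chosen with earlier results of these data known. Named were all members, up to 3 rises and 3 falls per list and comparison, the 5 genes most like Peg12 and the 2 most like each other member. The promoter windows come from RefSeq; all 8 genes matched.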

Additional observations from a re-analysis of the deposited data

How the results depend on the processing

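The signs of Ndn, Peg3, Grb10 and Plagl1 between pull-down and input held under every alternative, except Plagl1 for NAC with the mean of its probe sets, which also turned Nnat for NAC (0.06). Leaving out single arrays gave 149 to 1848 genes called for NAC, 415 to 3713 for VTA, 151 to 335 between the pull-downs, 100 to 206 between the inputs and 1 to 8 for the difference of enrichment, and 0 imprinted genes of the set in each; the lowest came without NAC input 1, VTA input 1, NAC pull-down 1 and VTA input 2 for the first 4. Without the filter the counts were 105 for NAC, 1907 for VTA, 113 between the pull-downs and 1 for the difference of enrichment. A variance trend gave 532 between the pull-downs and 30 for the difference of enrichment, quantile normalization 2 for the latter, and a fit on only the pull-downs 119. For NAC the trend called 1 of 6 genes of the set (Peg3), and 2028 of all 11712. For VTA 1 of 5 was called with centring, quantile normalization or the trend (Ndn). Of all 11712 genes, 2585, 2799 and 4092 were called under these settings in that order. The mean of probe sets called 1 of 5 for VTA (Nnat, 0.59), where 3565 of all genes were called. It also called 1 between the pull-downs (Nnat, 0.66), where 282 of all genes were called. For the difference of enrichment, Grb10 and Plagl1 changed sign with quantile normalization, and Plagl1 also with centring.

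The sample titles carry replicate numbers. Deviations of same-numbered arrays correlated at 0.30 between NAC pull-down and input and at -0.02 between VTA pull-down and input, over 11712 genes. Between same-numbered arrays of the other group pairs r ran from -0.13 to 0.22. These correlations do not settle whether the numbers pair the arrays, and the main fit used no pairing. With the replicate number as a block over all arrays 1455 genes were called for NAC, 3626 for VTA, 301 between the pull-downs, 177 between the inputs and 1 for the difference of enrichment; with a block within each target the counts were 1578 for NAC, 3890 for VTA and 1 for the difference. Under either block 1 gene of the set was called for VTA (Ndn, limma adjusted p = 0.0324 and 0.0333).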
